A study of Mus musculus with 6 samples.

Results

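The genes described are 9 members of the BCL2 family of cell death regulators measured in mouse cerebellum, Hrk among them, which has been reported as a target of the transcriptional repressor DREAM. They were taken from a list of 10 genes (Bcl2, Bcl2l1, Mcl1, Bax, Bak1, Bcl2l11, Bid, Bad, Bbc3 and Hrk) as every probe set annotated by the platform to exactly 1 symbol on that list. This gave 30 probe sets of 45037 tested, for 9 of 18193 genes. No probe set was assigned to Bax by this rule, and Bax was not analysed here.

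The samples were cerebella of transgenic daDREAM mice and of wild-type mice, dissected and frozen, with 3 arrays for each genotype, each an independent biological replicate per the series design. DREAM is the product of Kcnip3, a calcium sensor that silences genes by binding their DNA and lets go when calcium rises. The daDREAM protein is a mutant that no longer responds to calcium and stays on its targets. The labels give no agent or treatment, so genotype was the only stated difference. The promoter driving the transgene, and the strain, age and sex of the mice, are not stated in the sources used here. Expression was measured as log2 values, 1 per probe set and array, on which a difference of 1 is a doubling.

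Proteins of the BCL2 family decide whether the outer mitochondrial membrane stays intact. Anti-apoptotic members such as Bcl-2, Bcl-xL and Mcl-1 hold the effectors Bax and Bak in check, and active effectors form pores that release cytochrome c and start the caspase cascade. BH3-only proteins sense stress and either block the anti-apoptotic members or activate the effectors directly. In the cerebellum, granule neurons are a classical model of this pathway, and in cultured rat granule neurons the loss of depolarising potassium induces Hrk and Bim. DREAM has been described as silencing Hrk in blood progenitor cells through an element downstream of the coding sequence.

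DREAM binds DNA at downstream regulatory elements, whose core is GTCA. The RefSeq promoter table of build GRCm38.p6, which covers 250 bases before and 50 after each annotated start, held 16 windows for all 10 listed genes. The core, searched on both strands as GTCA and TGAC, was present in 14 of the 16, or 87.5%, against 85.2% of 32851 windows of all genes, so its presence does not set these promoters apart. The longer form GTCAAGG was found in 0 of the 16 and in 3.18% of all windows. The window of Hrk and the 3 windows of Bcl2l1, the gene with the largest differences between genotypes, are printed with the core in capitals on either strand. The Hrk element reported downstream lies outside this window, and the arrays did not measure binding.
Hrk, chr5:118169514-118169813, plus strand: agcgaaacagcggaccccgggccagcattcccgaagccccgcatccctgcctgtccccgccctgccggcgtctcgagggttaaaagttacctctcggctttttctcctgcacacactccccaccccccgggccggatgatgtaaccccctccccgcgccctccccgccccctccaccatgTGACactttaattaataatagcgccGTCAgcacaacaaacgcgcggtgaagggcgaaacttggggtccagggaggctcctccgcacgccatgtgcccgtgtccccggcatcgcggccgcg
Bcl2l1 window 1, chr2:152828440-152828739, minus strand: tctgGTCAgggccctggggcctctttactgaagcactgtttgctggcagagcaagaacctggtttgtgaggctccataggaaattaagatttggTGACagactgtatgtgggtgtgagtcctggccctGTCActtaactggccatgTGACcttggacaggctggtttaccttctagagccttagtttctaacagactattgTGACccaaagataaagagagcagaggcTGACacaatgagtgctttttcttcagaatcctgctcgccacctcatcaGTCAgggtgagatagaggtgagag
Bcl2l1 window 2, chr2:152830668-152830967, minus strand: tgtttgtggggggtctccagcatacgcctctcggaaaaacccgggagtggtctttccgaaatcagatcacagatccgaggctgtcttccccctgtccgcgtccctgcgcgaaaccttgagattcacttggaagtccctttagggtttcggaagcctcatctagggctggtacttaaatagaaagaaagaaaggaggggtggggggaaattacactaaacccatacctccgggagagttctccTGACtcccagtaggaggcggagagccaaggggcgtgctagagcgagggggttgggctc
Bcl2l1 window 3, chr2:152831679-152831978, minus strand: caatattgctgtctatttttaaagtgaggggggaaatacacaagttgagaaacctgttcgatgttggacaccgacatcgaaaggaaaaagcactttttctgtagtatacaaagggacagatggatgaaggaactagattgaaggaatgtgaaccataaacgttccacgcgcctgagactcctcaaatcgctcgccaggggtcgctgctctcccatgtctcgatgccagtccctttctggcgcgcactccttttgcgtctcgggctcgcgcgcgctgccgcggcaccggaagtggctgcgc
The Hrk window held 2 cores, where the median was 2 over all windows and 1 over the 16 member windows. The 3 Bcl2l1 windows held 7, 1 and 0, so alternative starts of that gene differ in this respect. A match describes letters in the window and says nothing of whether DREAM occupies it.

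The targeted gene and the tissue were looked at first. Both probe sets of Kcnip3 differed little, by 0.10 (1418544_at, 95% interval -0.27 to 0.46) and 0.11 (1449129_a_at, -0.21 to 0.42). Whether either reads the transgene is not known, so they do not check the genotype labels. Markers of granule cells were bright in every array (9 of 10 listed genes measured, led by Cbln1 at a mean of 12.2) and so were those of Purkinje cells (6 of 8, led by Pcp4 at 12.6), so defining markers of the labelled tissue were present. The level of 18 hybridization control probe sets, which read labelled RNA added in fixed amounts before hybridization, was 9.47, 10.14 and 10.47 in the daDREAM arrays against 8.99, 8.99 and 9.48 in the wild-type arrays (means 10.03 ± 0.51 and 9.15 ± 0.28, SD, n = 3 each, 2-sided exact permutation p = 0.2, where 3 against 3 cannot go below 0.1). Thus daDREAM replicates 2 and 3 stood above all other arrays on this technical measure, while daDREAM replicate 1 and wild-type replicate 3 were level. The beta-actin 3′ minus 5′ control, a sign of RNA integrity, was 0.96, 0.58 and 0.63 in daDREAM and 0.79, 0.79 and 0.78 in wild type, with overlap. The same control of Gapdh was 0.25, 0.01 and 0.08 in daDREAM and 0.25, 0.29 and 0.12 in wild type, also with overlap. On both of these controls daDREAM replicates 2 and 3 were the lowest arrays, so they stood apart on this measure too.

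No member passed the test between genotypes. With limma across all 45037 probe sets, 0 of the 30 member probe sets reached a Benjamini-Hochberg adjusted p under 0.05 (smallest adjusted p = 0.998), and 0% of all probe sets did. The count was also 0 with a trended, robust prior. Without adjustment, 3 member probe sets, 2 of Bcl2l1 and 1 of Bcl2l11, had p under 0.05, against 1.81% of all probe sets. The genotypes did not overlap at 2 of 30, or 6.67%, against 6.01% of all probe sets, so this share is near the background. Of the 30 differences 13 were higher and 17 lower in daDREAM, with a median of -0.023 (0.010 over all probe sets). This split turned to 16 higher and 14 lower after renewed quantile normalization and was 11 and 19 after median centring. The 95% intervals of 28 of the 30 lay within 1 log2 unit of 0 on either side, the exceptions being 1 probe set each of Bcl2 and Bcl2l1.

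**Figure D1:**
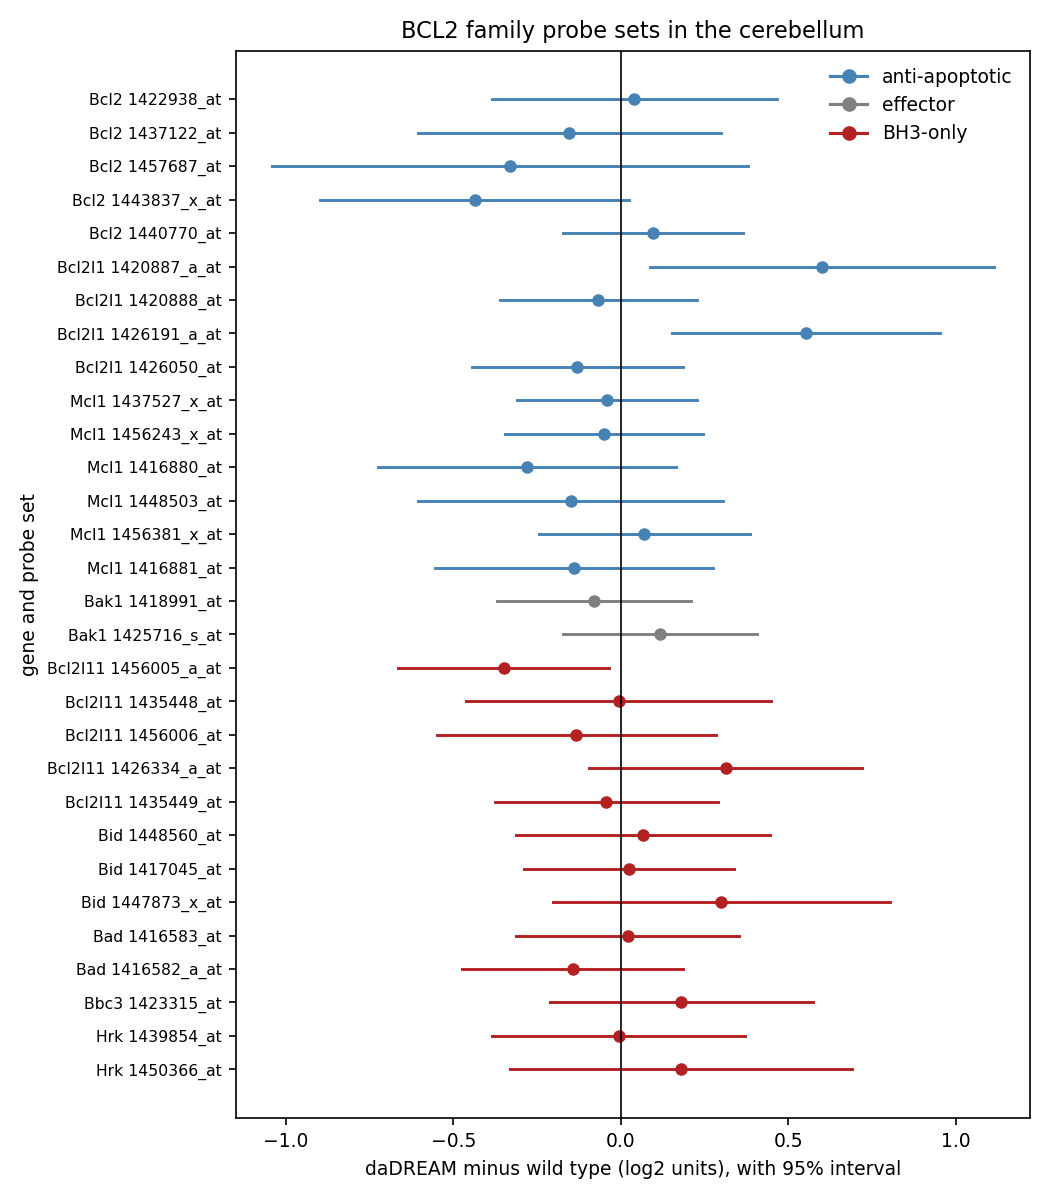
Differences between genotypes (horizontal axis, daDREAM minus wild type in log2 units) for the 30 probe sets (rows, grouped by gene). Points are limma estimates, lines 95% intervals and colours the role of the gene. Most intervals span 0, and the points run from -0.44 for a Bcl2 probe set to 0.60 for a Bcl2l1 probe set.

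Among the anti-apoptotic members, Bcl2l1, which encodes Bcl-xL and by alternative splicing the pro-apoptotic Bcl-xS, gave the largest differences, and its probe sets disagreed. Of 4 probe sets, 2 were higher in daDREAM by 0.60 and 0.55 and 2 differed by -0.07 and -0.13. Probe set 1420887_a_at read 9.11, 9.77 and 10.03 in daDREAM, against 9.14, 8.93 and 9.04 in wild type. Replicates 2 and 3 of daDREAM were high, while daDREAM replicate 1 lay inside the wild-type range, so the genotypes overlapped. The difference of 0.60 (SE 0.22, 95% interval 0.09 to 1.11, or 1.52-fold with an interval of 1.06 to 2.16) did not pass limma after adjustment (adjusted p = 0.998, unadjusted p = 0.0271).

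Probe set 1426191_a_at read 7.92, 8.43 and 8.29 in daDREAM, against 7.78, 7.41 and 7.79 in wild type. All daDREAM arrays were above all wild-type arrays here, the nearest pair by a narrow margin, and of the 30 this was the single probe set with daDREAM higher without overlap (3.75% of all probe sets were). Its difference was 0.55 (SE 0.17, interval 0.15 to 0.95, limma unadjusted p = 0.0127, adjusted p = 0.998).

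Probe set 1420888_at read 9.16, 9.13 and 9.30 in daDREAM against 9.43, 9.12 and 9.24 in wild type. The genotypes overlapped, with a difference of -0.07 (interval -0.36 to 0.23). The dim 1426050_at read 3.42, 3.80 and 3.74 in daDREAM against 3.86, 3.75 and 3.74 in wild type, a difference of -0.13 (interval -0.44 to 0.19). The suffix _a_at marks probe sets that match several transcripts of 1 gene. Which exons each probe set reads was not used here, so whether the disagreement follows a transcript form was not tested.

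Taken within each array, 1420887_a_at minus 1420888_at was -0.05, 0.64 and 0.73 in daDREAM and -0.29, -0.19 and -0.20 in wild type. These differences did not overlap (2-sided exact permutation p = 0.1, the smallest possible), although daDREAM replicate 1 was far closer to wild type than to the other daDREAM arrays. For 1426191_a_at minus 1420888_at the values were -1.24, -0.70 and -1.01 in daDREAM and -1.65, -1.71 and -1.45 in wild type, again without overlap (exact permutation p = 0.1). Both comparisons were chosen after the values were seen, and this design cannot pass 0.05 with them.

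The values of Bcl2l1 were set beside the level of the hybridization controls. The 2 arrays with the highest control level, daDREAM replicates 2 and 3, were the 2 highest arrays of both shifted probe sets. At 1426191_a_at daDREAM replicate 2 (8.43, controls 10.14) was above daDREAM replicate 3 (8.29, controls 10.47). In wild type, replicate 3 had controls at 9.48, against 8.99 in replicates 1 and 2. Wild-type replicate 3 read 9.04 at 1420887_a_at, against 9.14 and 8.93, and 7.79 at 1426191_a_at, against 7.78 and 7.41. At equal control level, daDREAM replicate 1 and wild-type replicate 3 read 9.11 and 9.04 at 1420887_a_at and 7.92 and 7.79 at 1426191_a_at. With this level as a covariate the difference of 1420887_a_at was -0.023 (interval -0.52 to 0.47, limma adjusted p = 0.957) and that of 1426191_a_at 0.19 (interval -0.29 to 0.67, adjusted p = 0.616). The control level partly follows genotype, so this fit cannot cleanly tell them apart. Without daDREAM replicate 1 the differences were 0.86 and 0.70, with limma adjusted p = 0.215 for both.

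**Figure D2:**
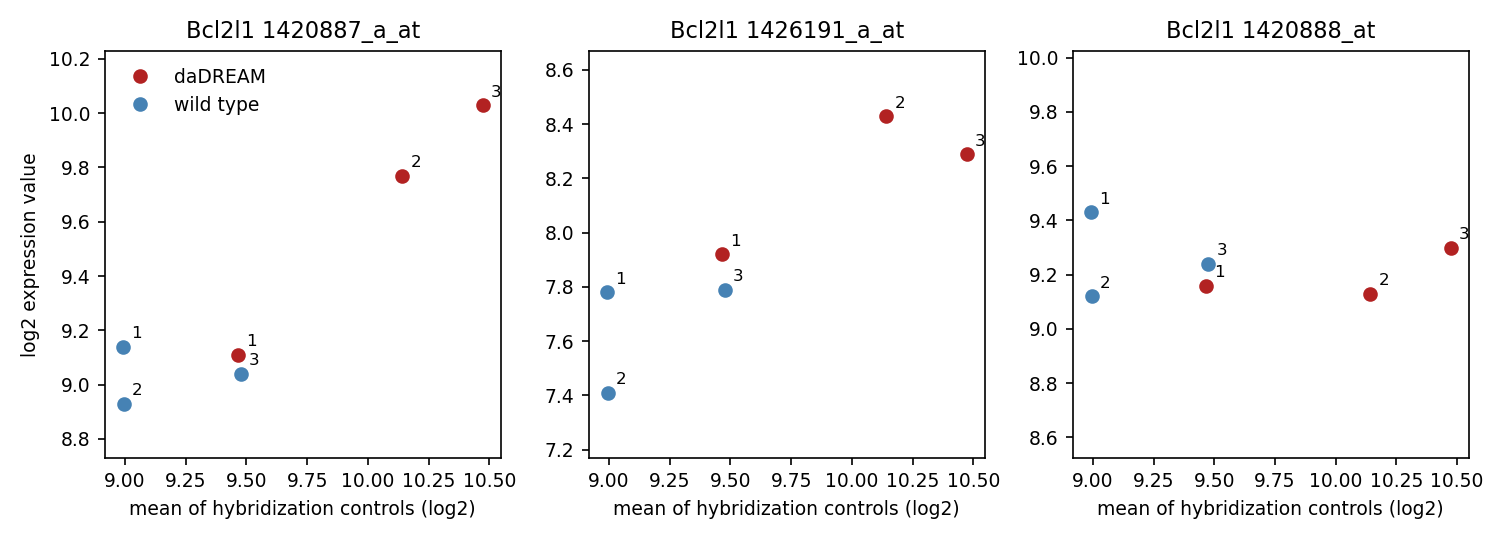
Log2 values of 3 Bcl2l1 probe sets (vertical axes) against the mean log2 level of the 18 hybridization controls (horizontal axes), 1 point per array with its replicate number. In the left and middle panels daDREAM replicates 2 and 3 are highest on both axes, and in the right panel 1420888_at is level across the arrays, between 9.12 and 9.43.

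Bcl2l1 is abundant in red blood cells and their precursors, and markers of other cell types were compared for that reason. Of 10 red blood cell markers 6 were measured, with 3 higher and 3 lower in daDREAM. Their summed linear level was 408 to 452 in daDREAM and 392 to 479 in wild type, so the ranges overlapped, and 4 of the 6 were dim (mean under 5 log2 units). Bpgm, at a mean of 8.04 log2 units against 6.21 for Alas2, made up most of this sum, so the sum says little of the globin genes. The dim globin genes Hba-a2, Hbb-b2 and Hba-a1 differed by 0.29, 0.18 and 0.06, and Alas2, Slc4a1 and Bpgm by -0.24, -0.03 and -0.0067. The sums of choroid plexus markers did not overlap, at 7474 to 8559 in daDREAM and 5081 to 6739 in wild type. All 10 of 10 genes were higher, against 9311 of all 18193 genes. Most of that sum was Ttr, at a mean of 12.7 log2 units against 6.57 for the next brightest marker, Clic6. Singly, the genotypes overlapped at Clic6, Otx2, Cldn2, Slc4a5 and Kcne2, and did not at Ttr, Folr1, Kl, Sostdc1 and Calml4. Of the 10 markers 3 were dim. Microglial markers were also 8 of 8 higher, with sums of 868 to 996 in daDREAM and 814 to 850 in wild type. Meningeal fibroblast markers were 7 of 8 higher, with sums of 1496 to 1652 in daDREAM and 1268 to 1359 in wild type. The meningeal markers did not move evenly. Igfbp2 and Igf2 differed most, by 0.58 and 0.32, while Col1a2, Dcn and Lum differed by 0.05, 0.04 and -0.03. Slc6a13, Ogn and Col1a1 differed by 0.24, 0.23 and 0.12. The ranges of the microglial and meningeal sums did not overlap between genotypes either, while those of the other 8 marker lists did. The part of these cells in the Bcl2l1 values was not tested, and in bulk tissue a change in the number of cells of a type cannot be told apart from a change of RNA per cell.

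Bcl2, the founding anti-apoptotic member, was read by 5 probe sets with differences of -0.44 to 0.10, and none passed. The brightest, 1422938_at, read 6.06, 6.35 and 6.59 in daDREAM and 6.55, 6.31 and 6.02 in wild type. The genotypes overlapped fully, with a difference of 0.04 (interval -0.38 to 0.47). Probe set 1443837_x_at read 4.47, 4.40 and 4.81 in daDREAM and 5.41, 4.79 and 4.79 in wild type. It gave the lowest difference of all members, -0.44 (SE 0.20, interval -0.90 to 0.02, limma adjusted p = 0.998), of which wild-type replicate 1 held a large share: without that array it was -0.23. Other omissions made it larger, at -0.56 without daDREAM replicate 3 and -0.54 without wild-type replicate 2 or 3. Without daDREAM replicate 1 or 2 it was -0.39 or -0.36. The suffix _x_at marks probes that may also bind other genes.

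Probe set 1457687_at of Bcl2 varied most of all members over the 6 arrays (SD 0.49). It read 6.60, 5.75 and 5.90 in daDREAM and 6.64, 6.82 and 5.78 in wild type. The high arrays were daDREAM replicate 1 and wild-type replicates 1 and 2, so the split crossed the genotypes, and the difference of -0.33 had an interval of -1.04 to 0.38. It was 0.58 with the controls' level as a covariate (interval -0.06 to 1.23), of opposite sign. Among 18192 other genes, the 3 whose array profile was nearest to it were Gabra4, a GABA-A receptor subunit, Tmx3, a thioredoxin-related protein of the endoplasmic reticulum, and Ro60, an RNA-binding protein. Their root mean square distances were 0.091, 0.094 and 0.107 log2 units over 6 arrays. Gabra4 read 7.31, 6.49 and 6.74 in daDREAM and 7.23, 7.42 and 6.56 in wild type. The same 3 arrays were high, which follows from its choice as the nearest profile.

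Mcl1, which encodes a short-lived anti-apoptotic protein needed by many neurons, had 6 probe sets, 5 of them lower in daDREAM, with differences down to -0.28, and 1 higher by 0.07. After renewed quantile normalization 3 were lower and 3 higher, so the direction of the gene depended on scaling. All 6 were higher in the fit with the hybridization controls as a covariate. The largest of these was 0.44 for 1448503_at (interval 0.07 to 0.81, limma adjusted p = 0.159). In that fit 5 of the 30 member probe sets, or 16.7%, had a limma unadjusted p under 0.05, against 23.2% of all probe sets. The brightest, 1437527_x_at, read 8.79, 8.61 and 8.56 in daDREAM and 8.71, 8.70 and 8.67 in wild type, a difference of -0.04 (interval -0.31 to 0.23). Probe set 1416880_at read 8.59, 8.18 and 7.79 in daDREAM and 8.46, 8.48 and 8.46 in wild type. Wild type was nearly constant there, while daDREAM replicate 1 was the highest and daDREAM replicate 3 the lowest of all 6 arrays. The difference of -0.28 (interval -0.72 to 0.17) was -0.48 without daDREAM replicate 1, -0.08 without daDREAM replicate 3 and 0.24 with the controls' level as a covariate, and in none of these did limma pass it after adjustment.

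**Figure D3:**
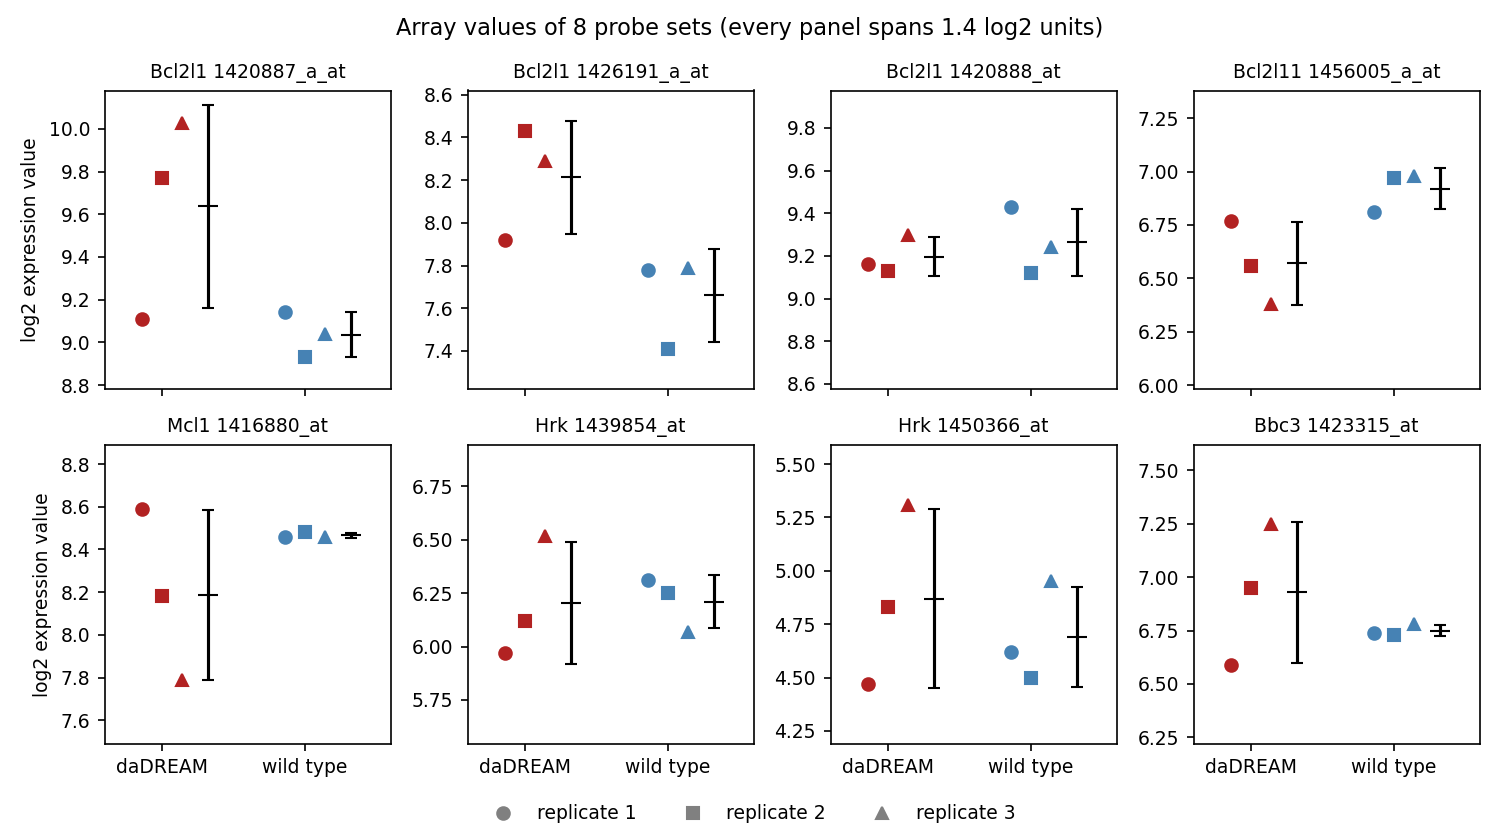
Log2 expression values (vertical axes) of 8 probe sets of Bcl2l1, Bcl2l11, Mcl1, Hrk and Bbc3 in the 3 daDREAM arrays (red) and the 3 wild-type arrays (blue), with the mean and SD in black. At Bcl2l1 1420887_a_at, Mcl1 1416880_at and Bbc3 1423315_at the wild-type arrays lie close together and the daDREAM arrays spread to either side of or above them, and both Hrk probe sets overlap.

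Of the pore-forming effectors, Bak1 alone was measured, by 2 probe sets of opposite sign. Probe set 1418991_at read 5.30, 5.21 and 5.17 in daDREAM and 5.42, 5.37 and 5.13 in wild type, a difference of -0.08 (interval -0.37 to 0.21). The dimmer 1425716_s_at read 3.88, 4.01 and 3.82 in daDREAM and 3.75, 3.67 and 3.94 in wild type, a difference of 0.12 (interval -0.17 to 0.41). The genotypes overlapped at both.

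Among the BH3-only members, Hrk encodes harakiri, a protein found mainly in the nervous system that binds Bcl-xL and Bcl-2. Neither of its 2 probe sets differed between genotypes beyond the spread of the arrays. Probe set 1439854_at read 5.97, 6.12 and 6.52 in daDREAM and 6.31, 6.25 and 6.07 in wild type, with means of 6.20 ± 0.28 and 6.21 ± 0.12 (SD, n = 3 each). The lowest and the highest array were both daDREAM. The difference was -0.0067 (SE 0.16, interval -0.38 to 0.37, which spans 0.766-fold to 1.29-fold). The dimmer 1450366_at read 4.47, 4.83 and 5.31 in daDREAM and 4.62, 4.50 and 4.95 in wild type, a difference of 0.18 (SE 0.22, interval -0.33 to 0.69). The genotypes overlapped at both probe sets, and both intervals reach to either side of 0.

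With the controls' level as a covariate, both Hrk probe sets were lower in daDREAM, with differences of -0.26 (interval -0.76 to 0.25) and -0.51 (interval -0.89 to -0.13, limma unadjusted p = 0.0137). Neither passed after adjustment over all probe sets (adjusted p = 0.512 and 0.132), and 23.2% of all probe sets had an unadjusted p under 0.05 in that fit. The sign of 1450366_at turned with this setting and that of 1439854_at did not. The second and the third of the genes with profiles nearest to Hrk 1439854_at over the 6 arrays were Npas4, an activity-induced transcription factor, and Fezf2, a zinc finger factor, at root mean square distances of 0.038 and 0.041 log2 units. Npas4 read 3.51, 3.61 and 4.02 in daDREAM and 3.91, 3.75 and 3.61 in wild type, and both Npas4 and Fezf2 were dim.

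Bcl2l11, which encodes Bim, had 5 probe sets with differences of -0.35 to 0.31, 4 of them lower. Probe set 1456005_a_at, the brightest, read 6.77, 6.56 and 6.38 in daDREAM and 6.81, 6.97 and 6.98 in wild type. The genotypes did not overlap, with daDREAM replicate 1 just under wild-type replicate 1, and of the 30 it was the single probe set lower in daDREAM without overlap (2.26% of all probe sets were). Its difference was -0.35 (SE 0.14, interval -0.67 to -0.03, 0.785-fold, limma unadjusted p = 0.0339, adjusted p = 0.998), and -0.13 (interval -0.54 to 0.27) with the controls' level as a covariate. The next brightest, 1435448_at, read 6.19, 6.52 and 5.83 in daDREAM and 5.96, 6.18 and 6.42 in wild type, a difference of -0.0067. The dim 1426334_a_at went the other way, at 3.68, 3.99 and 4.13 in daDREAM against 3.39, 3.91 and 3.56 in wild type, a difference of 0.31 (interval -0.09 to 0.72). The probe sets of Bim thus disagreed in sign.

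Bbc3, which encodes Puma, a BH3-only protein induced by p53, had a single probe set, 1423315_at, at 6.59, 6.95 and 7.25 in daDREAM and 6.74, 6.73 and 6.78 in wild type. The daDREAM arrays lay on both sides of a tight wild-type group (SD 0.33 against 0.03), and the difference was 0.18 (interval -0.21 to 0.57). Without daDREAM replicate 1 it was 0.35 and without daDREAM replicate 3 it was 0.02. With the controls' level as a covariate it was -0.27, of opposite sign.

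Bad, whose product is kept inactive by phosphorylation downstream of survival signals, differed by 0.02 (1416583_at, interval -0.31 to 0.35) and by -0.14 (1416582_a_at, interval -0.47 to 0.19). Probe set 1416583_at read 7.13, 6.97 and 6.79 in daDREAM and 7.07, 7.02 and 6.74 in wild type, and the genotypes overlapped. Probe set 1416582_a_at read 6.73, 6.76 and 6.34 in daDREAM and 6.81, 6.72 and 6.73 in wild type, and daDREAM replicate 3 alone stood apart. Both Bad probe sets were higher with the controls' level as a covariate, by 0.36 (interval 0.01 to 0.71, limma adjusted p = 0.202) and 0.090 (interval -0.33 to 0.51). Bid, the BH3-only protein cleaved by caspase-8, was dim at all 3 probe sets, with means over the 6 arrays of 3.23 to 3.84 log2 units. Its differences were 0.02 to 0.30, all higher and none past the test. After median centring 1 of the 3 was lower. In the fit with the hybridization controls as a covariate 2 were lower, 1448560_at at -0.38 (interval -0.73 to -0.02, limma adjusted p = 0.194) and 1447873_x_at at -0.38 (interval -0.75 to -0.01, adjusted p = 0.203). Intervals that leave out 0 were common in that fit, where 23.2% of all probe sets had a limma unadjusted p under 0.05, against 16.7% of the members.

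The spread within genotypes set what could be seen. Among the 30 probe sets the median SD was 0.23 in daDREAM and 0.16 in wild type, against 0.20 and 0.13 over all probe sets, and 18 of the 30 had the larger SD in daDREAM (69.6% of all probe sets did). Replicate 3 of daDREAM was the array farthest from the mean of the 6 at 11 of the 30 probe sets, or 36.7%, close to the 34.5% over all probe sets. The members thus shared the scatter of the whole table. Without daDREAM replicate 1, 11 of the 30 did not overlap between genotypes and 8 had an unadjusted p under 0.05, but so did 32.7% and 16.1% of all probe sets, and 0 were called after adjustment.

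**Figure D4:**
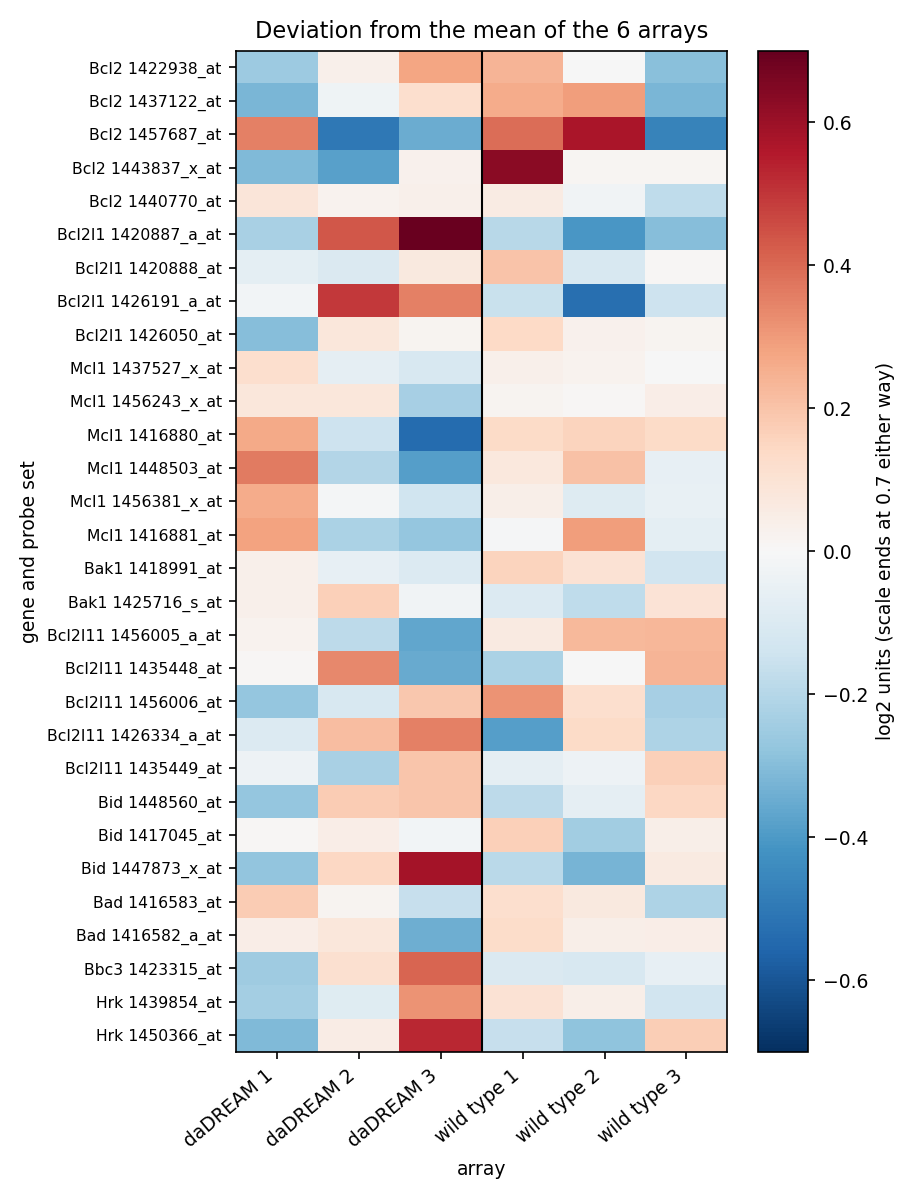
Deviation of each array from the mean of the 6 arrays in log2 units (colour) for the 30 probe sets (rows) in the daDREAM and wild-type arrays (columns). Strong colours are most frequent in daDREAM replicate 3, which was the farthest array at 11 of the 30 probe sets, and Bcl2 1457687_at shows the split that crosses the genotypes.

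Other genes of the pathway were taken from 3 lists, each gene by its brightest probe set, and 0 genes of these lists passed limma after adjustment. Of 18 further genes of the BCL2 family and its interaction partners, such as Bnip2, 14 were measured. In daDREAM 3 were higher and 10 lower, with a median of -0.08, against 0.01 over all 18193 genes. With the controls' level as a covariate the median was 0.12, of opposite sign. The 4 with the smallest unadjusted p were Bok, an effector-like member, at -0.18 (interval -0.51 to 0.15), Bcl2l2, which encodes the anti-apoptotic Bcl-w, at -0.12 (-0.42 to 0.18), Bnip2 at -0.32 (-1.13 to 0.49) and Bcl2l10 at -0.12 (-0.43 to 0.19). Of the 4 Bcl2l2 probe sets the other 3 were higher, and of 8 for Bnip2 4 were higher. None had an unadjusted p under 0.05.

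Downstream of the mitochondria, 29 of 32 genes of the apoptosome, caspases and their inhibitors were measured, 15 higher and 13 lower, with a median of 0.0033 that turned to -0.0050 after renewed quantile normalization, to -0.023 after median centring and to 0.14 with the controls' level as a covariate. Casp12, a caspase of the endoplasmic reticulum, read 5.33, 5.24 and 5.29 in daDREAM and 5.17, 4.92 and 5.0 in wild type. It did not overlap between genotypes, at 0.26 (interval -0.02 to 0.53), and its other probe set was higher by 0.19. The inhibitor of the caspase-activated nuclease Dffa differed by -0.18, the ubiquitin ligase Birc2 by -0.16 and the executioner caspase Casp6 by -0.13. None of the 29 had an unadjusted p under 0.05.

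Upstream, 31 of 34 regulators were measured, 15 higher and 16 lower, with a median of -0.02 that became 0.034 after renewed quantile normalization and 0.11 with the controls' level as a covariate. Stat5a, a cytokine-activated factor known to induce Bcl2l1 in blood cells, read 5.95, 6.03 and 5.95 in daDREAM and 5.61, 5.78 and 5.72 in wild type. It did not overlap, at 0.27 (interval 0.01 to 0.53, limma adjusted p = 0.998), and its other probe set was higher by 0.12. The stress factor Atf4 differed by 0.23, Foxo3, which drives Bcl2l11 and Bbc3, by 0.19, and Creb1, a transcription factor activated by calcium and cAMP, by -0.29. Over all probe sets of each gene the differences disagreed in sign, from -0.56 to 0.23 for Atf4, -0.06 to 0.34 for Foxo3 and -0.31 to 0.19 for Creb1.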

How the data were processed

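Cerebellar RNA of 3 daDREAM and 3 wild-type mice was hybridised to Affymetrix whole-genome mouse expression arrays. The authors deposited log2 values that came from RMA in the affy package, per the submitters' processing notes, with no version stated in the sources used here. RMA equalises probe distributions across arrays, so a shift shared by most genes would not show, and the values carry no detection call. The deposited values still differed in spread. Their interquartile range was 3.49, 3.15 and 2.97 in daDREAM and 3.27, 3.38 and 3.10 in wild type. Correlations between arrays went down to 0.973 within daDREAM and to 0.981 between genotypes. Renewed quantile normalization raised the probe sets with a limma unadjusted p under 0.05 from 817 to 1361. Precision is limited by the number of arrays, and the median 95% interval over all probe sets reached 0.35 log2 units to either side.

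Genotypes and replicate numbers came from the sample titles. No 2 arrays were identical. Of 45101 probe sets 64 controls were left out and 45037 tested, of which 34945 have 1 gene symbol, 932 several and 9160 none. Differences are daDREAM minus wild type, fitted over the whole table in R 4.3.3 by the limma functions lmFit and eBayes (version 3.58.1; Benjamini-Hochberg adjustment across the tested table, threshold 0.05), a procedure tested on simulated data. Probe sets with a mean under 5 log2 units are called dim. Marker and pathway genes were represented by their brightest probe set, and marker levels were summed on the linear scale.

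The members, gene lists and tests were chosen with earlier results of these data known. All member probe sets were named. From each other list the 4 genes with the smallest unadjusted p were named, and 3 genes nearest in profile to the most variable member probe set and to the brightest Hrk probe set, of which the nearest to Hrk is not reported here. Replicate numbers are shared by both genotypes, but no label says that they pair mice. Alternatives were renewed quantile normalization, median centring, a limit on mean level, another variance prior, a replicate block, the hybridization controls as a covariate, each array left out, 1 value per gene, and omission of probe sets ending in _s_at or _x_at. Leaving out daDREAM replicate 3 with wild-type replicate 2, and 4 further probe sets, were added after seeing the values.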

Additional observations from a re-analysis of the deposited data

How the results depend on the processing

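Under every alternative run, 0 member probe sets and 0 of all probe sets were called by limma after adjustment. The count of member probe sets without overlap, 2 in the main comparison, ran from 2 to 11 when 1 array was left out, the highest without daDREAM replicate 1 (32.7% of all probe sets). It was 4 without daDREAM replicate 3 (14% of all) or without wild-type replicate 1 (9.91%) and 6 without wild-type replicate 3 (17.5%). It was 1 of 9 with the brightest probe set of each gene (5.59% of all genes), 0 with the mean of the probe sets of each gene (6.15%) and 6 without both daDREAM replicate 3 and wild-type replicate 2 (24.1% of all probe sets), where fewer probe sets or arrays entered. With the replicate number as a block the differences were the same, at 0.60 for Bcl2l1 1420887_a_at, and 0 member probe sets were called. Deviations of same-numbered arrays correlated at 0.12, -0.28 and 0.32, and daDREAM replicate 1 correlated best with wild-type replicate 2 (0.49), so the numbers were not taken to pair the arrays.

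Signs turned in several settings, and the cause was not tested. After renewed quantile normalization Mcl1 1437527_x_at was 0.011 and Hrk 1439854_at 0.022, and after median centring Bad 1416583_at was -0.0067. With the controls' level as a covariate Bcl2 1422938_at was -0.14, Bcl2l1 1420887_a_at -0.023, Mcl1 1437527_x_at 0.13, Bak1 1418991_at 0.12, Bid 1448560_at and 1447873_x_at -0.38 each, Bad 1416582_a_at 0.090, Bcl2 1457687_at 0.58, Hrk 1450366_at -0.51, Bbc3 1423315_at -0.27 and Mcl1 1416880_at 0.24. With the mean of the probe sets of each gene Bcl2 was -0.16, Bak1 0.018, Bad -0.062 and Hrk 0.087. Without both daDREAM replicate 3 and wild-type replicate 2, Bcl2 1422938_at was -0.08, Mcl1 1437527_x_at 0.01 and Bid 1448560_at -0.03. When 1 array was left out, Bad 1416583_at ran from -0.082 to 0.11, Hrk 1439854_at from -0.16 to 0.11, Bid 1448560_at from -0.015 to 0.22, Bcl2 1422938_at from -0.10 to 0.18, Mcl1 1437527_x_at from -0.11 to 0.0067 and Bcl2l1 1420888_at from -0.14 to 0.017. Bcl2l1 1420887_a_at stayed between 0.40 and 0.86, 1426191_a_at between 0.43 and 0.70 and Bcl2l11 1456005_a_at between -0.45 and -0.26 in those runs. They were smaller elsewhere: with the mean of the probe sets of each gene Bcl2l1 was 0.24 and Bcl2l11 -0.044. Without both daDREAM replicate 3 and wild-type replicate 2, the 3 probe sets were at 0.35, 0.39 and -0.23.

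The arrays carry no background call, so whether dim probe sets such as those of Bid read above background is not known, and their differences are limited accordingly.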
